A study of Homo sapiens with 2 samples.

Results

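Breast secretory marker genes are genes whose products are made by the secretory (luminal) epithelium of the breast and are used to recognise tissue and tumors of breast origin. Here they are 9 genes chosen by name: SCGB2A2, SCGB2A1, SCGB1D2, PIP, MUCL1, ANKRD30A, AGR2, AGR3 and AZGP1, of 20033 protein-coding genes annotated in GENCODE release 44 on hg38. Open chromatin was profiled by ATAC-seq, which relies on the Tn5 transposase: the enzyme cuts DNA that is not wrapped tightly and leaves sequencing adapters at the cuts. The samples were 2 biological replicates of CAMA-1, an established luminal breast cancer cell line described in the labels as epithelial and from the mammary gland, grown without any treatment, with 50000 cells per library. With 1 cell line in 1 condition, no groups could be compared and no test between conditions was possible.

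Each gene was examined over its gene body and 50 kb on either side, here called its window. These windows held 177 of the 245736 peaks of replicate 1 and 183 of the 259745 peaks of replicate 2. A region is a stretch in which a peak of replicate 1 and a peak of replicate 2 overlapped by at least 1 bp, and the windows held 157 of the 215195 regions of the genome. Of these 157 regions, 10 lay within 1 kb of an annotated transcription start site (TSS) of a member, 15 lay only at a TSS of another gene and 132 lay at no TSS. The strength of a peak is given as its height, the number of stacked reads at its highest point, and as its fold enrichment over the background of the peak caller, 3.35 reads in replicate 1 and 3.52 in replicate 2. The lowest height in either list was 11, the median was 35, and the highest was 1744 in replicate 1 and 1759 in replicate 2. Intervals in parentheses after a height are exact 95% Poisson intervals and cover counting error only. In these bulk libraries, a site that is open in few cells and a site that is weakly open in many cells cannot be told apart.

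Secretoglobins are small secreted proteins that pair into dimers, and SCGB2A2 (mammaglobin A), SCGB2A1 (mammaglobin B) and SCGB1D2 (lipophilin B) are the members most tied to breast, where mammaglobin A and lipophilin B form a complex. PIP (prolactin-induced protein, a component of breast cyst fluid), MUCL1 (small breast epithelial mucin) and AZGP1 (zinc-alpha-2-glycoprotein, a lipid-mobilizing protein) are also released into fluids. AGR2 and AGR3 are related proteins of the disulfide isomerase family, and AGR2 helps to fold mucins in the endoplasmic reticulum. ANKRD30A is a breast differentiation antigen with ankyrin repeats and is not itself a secreted product. A peak at a promoter shows that its DNA could be cut by the transposase, and the level of the transcript was not measured here.

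The label of the line was checked against marker genes. A TSS peak was present in both replicates at 6 of 6 luminal epithelial markers (ESR1, FOXA1, GATA3, KRT8, KRT18 and KRT19), with a median height of 368.5 in replicate 1 and 398 in replicate 2. Of 8 markers of blood, fibroblast and endothelial cells, PTPRC, CD3E and PECAM1 had none, and 5 had one, with a median height of 207 and 237. A TSS peak within 1 kb can belong to the promoter of a neighboring gene, and this was not resolved for those 5 genes.

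The sequences that carry the comparisons below are shown first. The 6 promoters are the 200 bases directly upstream of the start, taken from RefSeq on GRCh38.p14 and written 5′ to 3′ on the strand of the gene. They are shown because SCGB1D2, MUCL1 and AZGP1 had the strongest TSS peaks, SCGB2A1 and SCGB2A2 are close relatives with weaker peaks, and PIP had no TSS peak. The RefSeq table matched 8 of the 9 members, all but ANKRD30A. Capitals mark motif matches: GCCNNNGGC for AP-2, TGTTTAC and its variant TGTTTGC for forkhead factors (FOX), and TGANTCA for AP-1, each searched on both strands.
SCGB1D2 promoter (chr11:62242039-62242238, plus strand): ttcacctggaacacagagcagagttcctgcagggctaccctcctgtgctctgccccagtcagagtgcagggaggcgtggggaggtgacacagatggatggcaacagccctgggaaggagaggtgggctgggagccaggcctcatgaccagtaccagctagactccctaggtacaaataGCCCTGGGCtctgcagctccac
MUCL1 promoter (chr12:54854316-54854515, plus strand): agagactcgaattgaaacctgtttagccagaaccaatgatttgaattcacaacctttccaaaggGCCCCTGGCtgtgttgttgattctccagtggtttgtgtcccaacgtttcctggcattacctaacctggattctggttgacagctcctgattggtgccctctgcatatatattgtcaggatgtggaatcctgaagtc
AZGP1 promoter (chr7:99976032-99976231, minus strand): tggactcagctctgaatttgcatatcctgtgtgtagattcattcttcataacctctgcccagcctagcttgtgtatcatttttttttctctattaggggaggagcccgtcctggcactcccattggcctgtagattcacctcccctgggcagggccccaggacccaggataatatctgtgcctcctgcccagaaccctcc
SCGB2A1 promoter (chr11:62208473-62208672, plus strand): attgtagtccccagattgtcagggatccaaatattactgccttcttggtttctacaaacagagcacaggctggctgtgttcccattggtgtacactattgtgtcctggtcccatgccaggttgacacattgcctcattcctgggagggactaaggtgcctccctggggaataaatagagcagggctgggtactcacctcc
SCGB2A2 promoter (chr11:62269958-62270157, plus strand): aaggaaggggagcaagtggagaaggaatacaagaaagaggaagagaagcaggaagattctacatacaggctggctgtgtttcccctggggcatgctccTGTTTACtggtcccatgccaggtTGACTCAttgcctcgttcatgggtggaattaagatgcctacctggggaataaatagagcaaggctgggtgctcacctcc
PIP promoter (chr7:143131877-143132076, plus strand): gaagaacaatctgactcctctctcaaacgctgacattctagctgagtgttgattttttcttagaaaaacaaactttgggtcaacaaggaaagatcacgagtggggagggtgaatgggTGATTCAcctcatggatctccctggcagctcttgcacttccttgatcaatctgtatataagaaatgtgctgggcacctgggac

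The next 3 sequences are the central 200 bases of the strongest regions at no TSS around MUCL1, ANKRD30A and PIP, from hg38 on the plus strand. Each of them held a FOX match, which was not so at the other loci. Within its central 300 bp, the strongest region at no TSS around AZGP1 held an AP-1 match and no FOX match. Those of the AGR2 and AGR3 locus and of the secretoglobin locus held neither. The deposited lists gave no summits, so the midpoint of a region stands for its summit. Capitals mark FOX and AP-1 matches as above, and GTAAACA is TGTTTAC read on the other strand.
MUCL1 region (chr12:54892202-54892401, plus strand): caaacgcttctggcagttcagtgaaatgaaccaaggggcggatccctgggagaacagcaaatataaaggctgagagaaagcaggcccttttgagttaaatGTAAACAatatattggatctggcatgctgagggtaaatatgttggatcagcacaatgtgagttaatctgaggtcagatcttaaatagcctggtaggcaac
ANKRD30A region (chr10:37146599-37146798, plus strand): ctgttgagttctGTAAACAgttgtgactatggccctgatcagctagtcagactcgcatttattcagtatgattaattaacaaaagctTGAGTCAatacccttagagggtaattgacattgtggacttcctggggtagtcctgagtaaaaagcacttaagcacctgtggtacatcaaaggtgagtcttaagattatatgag
PIP region (chr7:143172463-143172662, plus strand): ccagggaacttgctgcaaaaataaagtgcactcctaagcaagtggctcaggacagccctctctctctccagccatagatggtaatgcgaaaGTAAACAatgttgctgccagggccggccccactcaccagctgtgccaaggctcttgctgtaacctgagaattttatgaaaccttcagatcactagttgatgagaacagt

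A TSS peak, that is a peak within 1 kb of any annotated TSS, was present in both replicates at 8 of the 9 genes, all but PIP. Of all protein-coding genes, 79.3% had one. The promoters of 8 of the 9 genes were CpG-poor (observed to expected CpG below 0.48 in the 500 bp on either side of the most 5′ TSS), the exception being ANKRD30A with 0.626. Of those 8 genes 7 had a TSS peak, against 57.2% of the 6534 protein-coding genes with CpG-poor promoters. PIP therefore belonged to the promoter class in which a TSS peak was less common. With 9 genes these counts are a description, and no test was made on them.

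The strongest TSS peaks of the 8 genes had heights between 20 and 499 in replicate 1 and between 24 and 535 in replicate 2. MUCL1, AZGP1 and SCGB1D2 were above the median of all protein-coding genes for which each replicate had a TSS peak (224 in replicate 1 and 240 in replicate 2), and the other 5 were below the median of the genes with CpG-poor promoters (144 and 150). By mean fold enrichment the order was MUCL1, AZGP1, SCGB1D2, SCGB2A1, AGR2, SCGB2A2, AGR3 and ANKRD30A. In this order the intervals of neighbors overlapped in both replicates for MUCL1 and AZGP1, for SCGB2A1 and AGR2, and for AGR3 and ANKRD30A. AZGP1 and SCGB1D2 overlapped in replicate 2 only. The remaining steps, from SCGB1D2 to SCGB2A1, from AGR2 to SCGB2A2 and from SCGB2A2 to AGR3, were larger than the counting error in each replicate. The plot of heights by gene shows 3 tall genes, a middle pair, and low peaks at the remaining genes.

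**Figure D1:**
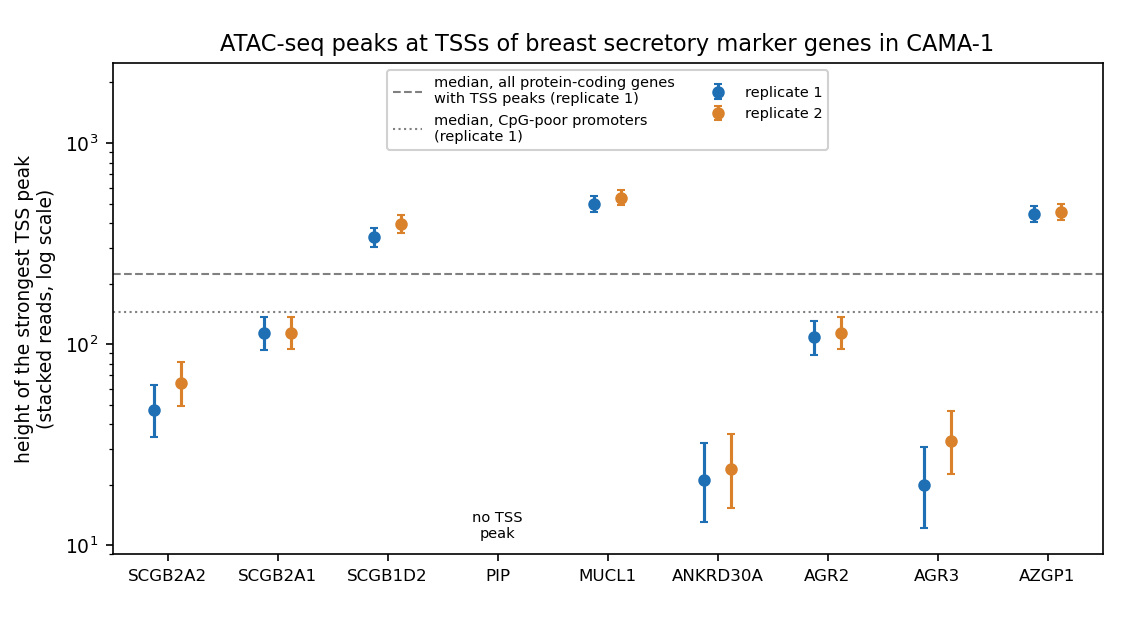
Height of the strongest peak within 1 kb of an annotated TSS (stacked reads, log scale) for each of the 9 genes in replicate 1 (blue) and replicate 2 (orange), with exact 95% Poisson intervals as bars and the replicate 1 medians of all protein-coding genes (224, dashed) and of those with CpG-poor promoters (144, dotted). MUCL1, AZGP1 and SCGB1D2 lie above both lines, the other 5 genes with a peak lie below both, and PIP had no TSS peak.

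The 3 secretoglobin genes lie on the plus strand of chromosome 11, in the order SCGB2A1, SCGB1D2 and SCGB2A2. Each has a single annotated TSS, and each TSS lay under a peak in both replicates. The peak of SCGB1D2 (ENSG00000124935.4, chr11:62242239-62244812) was 339 reads high in replicate 1 (304 to 377) and 397 in replicate 2 (359 to 438), a fold enrichment of 83.1 ± 6.91 (SD, n = 2). Higher in replicate 2, these heights had overlapping intervals. At SCGB2A1 (ENSG00000124939.6, chr11:62208673-62213943) the heights were 113 (93.1 to 136) and 114 (94.0 to 137), or 25.8 ± 0.566 (SD, n = 2). SCGB2A2 (ENSG00000110484.7, chr11:62270158-62273160) had the lowest of the trio, 47 (34.5 to 62.5) and 64 (49.3 to 81.7), or 12.7 ± 2.35 (SD, n = 2). Mammaglobin A, the best known breast marker of this locus, thus had the weakest promoter peak of its 3 secretoglobins, and the intervals of the 3 genes did not overlap in either replicate.

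The mammaglobin promoters are alike in sequence but not in peak height. Over the 300 bases from 250 before to 50 after the start, those of SCGB2A2 and SCGB2A1 were 67.2% identical, whereas either was 47.3% to 50.5% identical to that of SCGB1D2. SCGB1D2 in turn was 74.4% identical to the promoter of SCGB1D1 and 71.6% to that of SCGB1D4, which encode related lipophilins in the same chromosomal cluster. SCGB1D1 had a TSS peak of 38 and 39 reads, far below the 339 and 397 of SCGB1D2, and SCGB1D4 had none in either replicate. In the sequences above, a FOX match at -102 to -96 and an AP-1 match at -79 to -73, counted from the start, were found in SCGB2A2 and not in SCGB2A1, and the single match of SCGB1D2 was an AP-2 match at -22 to -14.

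MUCL1 (ENSG00000172551.12, chr12:54830518-54896008, plus strand) had the strongest TSS peak of the 9 genes. It was 499 reads high in replicate 1 (456 to 545) and 535 in replicate 2 (491 to 582), a fold enrichment of 116.8 ± 2.46 (SD, n = 2). The peak covered the start of the MANE Select transcript at position 54854516, the reference transcript chosen jointly by RefSeq and Ensembl, and the most 5′ of the 4 annotated starts had no peak within 1 kb. Inside the gene body, which spans all annotated transcripts, an intronic region at chr12:54892012-54892590 reached 396 (358 to 437) and 402 (364 to 443). Its midpoint lay 37785 bp downstream of the MANE Select TSS, and whether the MANE Select transcript extends that far was not examined. A further intronic region at chr12:54882035-54882480 had heights of 222 and 246, and a downstream region at chr12:54935294-54935807 had 190 and 170. The first of these, whose sequence is shown above with its FOX match, had intervals that lay above the medians of TSS peaks given above.

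AZGP1 (ENSG00000160862.13, chr7:99966720-99976042, minus strand) followed MUCL1. Its TSS peak was 445 reads high in replicate 1 (405 to 488) and 453 in replicate 2 (412 to 497), a fold enrichment of 101.5 ± 1.58 (SD, n = 2), and it covered the MANE Select TSS. The same peak lay at a TSS of the unnamed gene ENSG00000286921, so its reads cannot be assigned to a single promoter. A weaker region near an alternative TSS of AZGP1, chr7:99971178-99971497, had heights of 42 and 52. Downstream of the gene, chr7:99955165-99956884 reached 478 (436 to 523) in replicate 1 and 389 (351 to 430) in replicate 2. This region was higher in replicate 1 than in replicate 2 beyond counting error. The next strongest, chr7:100003722-100004483 upstream and chr7:99953516-99954191 downstream, had heights of 222 and 241, and of 199 and 216.

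Sequence that is repeated elsewhere in the genome bears on AZGP1. In its TSS region, 32.5% of the words of 32 bases occurred more than once in hg38, and in the region at the TSS of its neighboring pseudogene AZGP1P1 53.0% did. Over all regions of a window the share was 18.5% for AZGP1 and 27.1% for ANKRD30A, and between 0.385% (AGR2) and 9.78% (PIP) for the other 7 genes. How the authors treated reads with several matches is not given in the sources used here.

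AGR2 and AGR3 lie next to each other on the minus strand of chromosome 7. AGR2 (ENSG00000106541.12, chr7:16791811-16833433) had TSS peaks at 2 starts. The peak over the MANE Select TSS was 108 reads high in replicate 1 (88.6 to 130) and 98 in replicate 2 (79.6 to 119), and the peak over an alternative TSS at position 16801196 was 91 (73.3 to 112) and 114 (94.0 to 137). Which of these was the taller changed between the replicates, and at each of them the intervals of the replicates overlapped. AGR3 (ENSG00000173467.9, chr7:16859412-16881987) had a peak of only 20 (12.2 to 30.9) and 27 (17.8 to 39.3) over its MANE Select TSS. A further peak of 33 reads, 995 bp from an AGR3 TSS, was called in replicate 2 and not in replicate 1.

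The strongest region of the AGR2 and AGR3 locus lay at neither promoter. Between the genes, chr7:16847221-16847978 reached 321 (287 to 358) in replicate 1 and 332 (297 to 370) in replicate 2, a fold enrichment of 73.9 ± 0.321 (SD, n = 2). Relative to the MANE Select TSS and along the direction of transcription, its midpoint lay at -42600 bp for AGR2 and at 34384 bp for AGR3. Upstream of AGR3, chr7:16905189-16905829 had heights of 266 (235 to 300) and 250 (220 to 283), and chr7:16891357-16891714 had 167 and 159. All 3 were taller than the TSS peaks of both genes, with intervals that did not overlap, except that chr7:16891357-16891714 met the interval of the alternative TSS of AGR2 in replicate 2. Within the annotated body of AGR2, the strongest region at no TSS was intronic, chr7:16813214-16813670, with heights of 97 and 107. Its midpoint lay at -8443 bp, upstream of the MANE Select TSS, so it was intronic only by annotated starts further upstream.

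ANKRD30A (ENSG00000148513.20, chr10:37125598-37232567, plus strand) had no peak at its main start. The nearest peak edge lay 4043 bp from the MANE Select TSS in replicate 1 and 4048 bp in replicate 2. The gene counted as having a TSS peak only through alternative starts, at which replicate 1 had peaks of 21 (13.0 to 32.1) and 16 reads and replicate 2 had a peak of 24 (15.4 to 35.7). Only the peaks of 16 and 24 reads overlapped, at chr10:37218158-37218420, so that the 5.30 ± 0.330 (SD, n = 2) of its strongest TSS peaks joins 2 places. With the MANE Select TSS alone, 7 of the 9 genes had a TSS peak in both replicates, and 74.1% of 19061 protein-coding genes did.

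The body of ANKRD30A nevertheless held 30 regions, 28.0 per 100 kb, and its window held 51. The strongest were intronic, chr10:37146367-37147029 with heights of 249 (219 to 282) and 251 (221 to 284), and chr10:37137325-37137953 with 222 (194 to 253) and 253 (223 to 286). An upstream region at chr10:37117786-37118116 had 113 (93.1 to 136) and 129 (108 to 153). Of the 4523 protein-coding genes without a peak within 1 kb of the MANE Select TSS in either replicate, 69 had at least as many regions in the gene body as ANKRD30A and 303 had a gene body region at no TSS at least as strong as its strongest, ANKRD30A counted in both, and 47.5% had no region in the gene body at all. The body of ANKRD30A is 107 kb long, and these genes were not matched to it in length. A longer gene body has more room for regions, so the counts do not single out ANKRD30A. Some of these regions held much repeated sequence. In 12 of the 51 regions more than 50% of the 32-base words occurred elsewhere in the genome. In chr10:37137325-37137953 the share was 65.7%, against 20.1% in chr10:37146367-37147029. The part of repeated sequence in the counts and heights was not tested.

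PIP (ENSG00000159763.4, chr7:143132077-143139739, plus strand) had no TSS peak in either replicate and no region in its gene body. Peaks in the gene body were called in a single replicate each, with 18 and 23 reads in replicate 1 and 21 reads in replicate 2. The nearest peak edge lay 1456 bp upstream of the TSS in replicate 1 and, at a peak of 18 reads found only there, 1117 bp upstream in replicate 2. The nearest region, chr7:143129064-143130621, was 169 reads high in replicate 1 (144 to 196) and 202 in replicate 2 (175 to 232). Further away, chr7:143172379-143172746, with its midpoint 40485 bp downstream of the TSS, reached 229 (200.3 to 261) and 235 (206 to 267), and chr7:143095953-143096504 upstream had 79 and 95. The strong upstream region ended more than 1 kb before the PIP promoter in both replicates. Of the 4523 protein-coding genes without a peak at the MANE Select TSS, 24.7% had a region within 3 kb, and 2.94%, PIP included, had a region within 3 kb at least as strong as that of PIP.

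Set among the 15890 protein-coding genes for which each replicate had a TSS peak, MUCL1 stood at percentile 89.7 by mean fold enrichment, AZGP1 at 84.2 and SCGB1D2 at 74.8. SCGB2A1 (22.7), AGR2 (22.2), SCGB2A2 (10.8), AGR3 (3.51) and ANKRD30A (2.25) all fell below percentile 25. As for ANKRD30A, the values of AGR2 and AGR3 join 2 places, since the tallest TSS peak lay at a different position in each replicate. By replicate 1 alone AGR3 stood at percentile 1.69, and by replicate 2 alone, through the peak of 33 reads that replicate 1 lacked, at 5.42. The median over the 8 genes was 22.5. Among genes with CpG-poor promoters only, which leaves out ANKRD30A, the percentiles were 93.2 for MUCL1, 89.4 for AZGP1, 82.6 for SCGB1D2, 42.8 for SCGB2A1, 42.2 for AGR2, 25.6 for SCGB2A2 and 9.37 for AGR3. The same values were ranked within a subset, so the order of the genes could not change. The percentiles of the weaker promoters moved toward the middle.

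**Figure D2:**
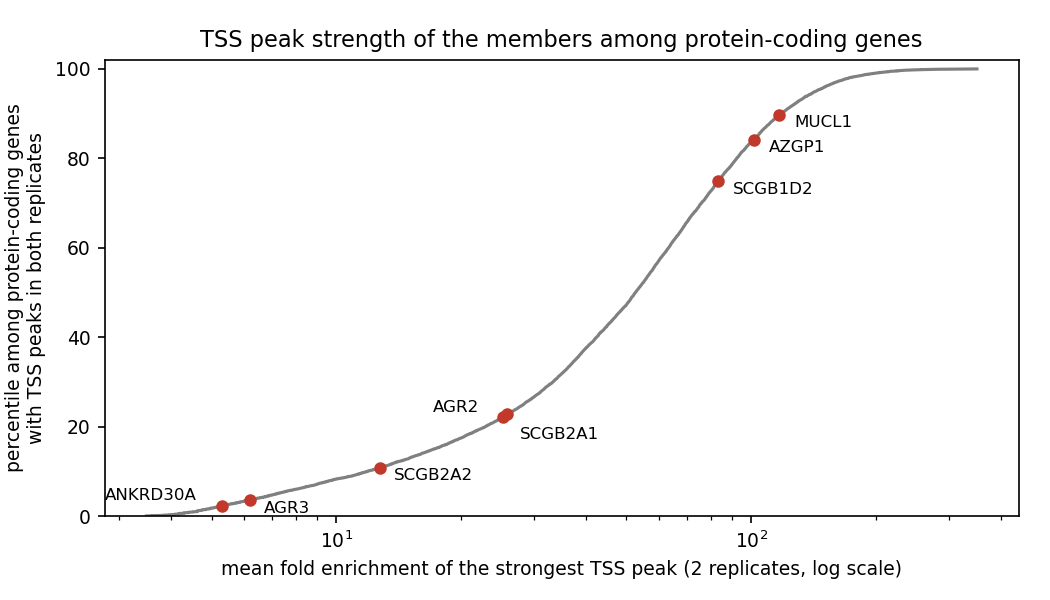
Cumulative distribution (grey) of the mean fold enrichment of the strongest TSS peak over 2 replicates (log scale) among the 15890 protein-coding genes with a TSS peak in both, with the 8 genes marked in red at their percentiles. MUCL1, AZGP1 and SCGB1D2 lie between percentiles 74.8 and 89.7, and the other 5 lie between 2.25 and 22.7.

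Comparison lists placed these values among related genes. Their counts stand beside the 79.3% of all protein-coding genes that had a TSS peak in both replicates. Of 6 other secretoglobins, 4 had a TSS peak in both replicates, with a median height of 41.5 in replicate 1 and 33.5 in replicate 2. The strongest were SCGB3A1 (69 and 43) and SCGB1D1 (38 and 39), and SCGB1A1 and SCGB1D4 had no TSS peak in either replicate. SCGB1D2, with 339 and 397, and SCGB2A1, with 113 and 114, stood above all 4 of them in both replicates, whereas SCGB2A2, with 47 and 64, lay within their range in replicate 1. Genes listed for the secretory machinery of the endoplasmic reticulum, not all of which fold or export proteins themselves, had a TSS peak in 16 of 16 cases. Their median heights were 450.5 and 467, and the strongest were PDIA4 (767 and 750) and CREB3L4 (761 and 750). Luminal breast factors and keratins had one in 16 of 16 cases, with medians of 404 and 435, led by ELF3 (982 and 1046) and KRT8 (608 and 662). Only MUCL1 among the 9 secretory genes exceeded the medians of both lists in both replicates. The promoter classes differed, with CpG-poor promoters at 2 of the 16 machinery genes, 8 of the 16 luminal genes and 8 of the 9 members. The part of this difference in the heights was not tested.

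Secretory markers of other tissues were mostly CpG-poor, 19 of 20, as were 5 of the 6 other secretoglobins and 8 of the 9 breast genes. This list shares genes with that of the other secretoglobins, SCGB1A1 among them. A TSS peak in both replicates was present at 8 of these 20 genes, with median heights of 56 and 52. Of all protein-coding genes with CpG-poor promoters, 57.2% had one. The strongest were PGC (pepsinogen of the stomach, 249 and 249) and TG (thyroglobulin, 198 and 222). There was no peak in both replicates at ALB, FGA, GCG, PRSS1, CELA3A, PNLIP, AMY2A, SCGB1A1, KLK3, GAST, UMOD and STATH, and of these CELA3A had a peak of 21 reads in replicate 1 only. The breast list had 8 of 9 with medians of 110.5 and 114. MUCL1, AZGP1 and SCGB1D2 exceeded every gene of the other-tissue list in both replicates. The lists were not tested against each other.

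The windows differed in how much open chromatin they held. Densities were 24.6 regions per 100 kb for ANKRD30A, 23.8 for AZGP1, 22.8 for AGR3, 15.5 for AGR2, 11.4 for SCGB2A1, 10.7 for SCGB1D2, 9.06 for MUCL1, 8.74 for SCGB2A2 and 8.36 for PIP, against a median of 11.4 over the windows of all protein-coding genes. ANKRD30A stood at percentile 86.1 of all windows, AZGP1 at 84.7 and PIP at 37.0. Of the 26 regions around AZGP1, 8 lay at the TSS of another gene, whereas around PIP and MUCL1 none did. The 3 secretoglobin windows overlapped each other, as did those of AGR2 and AGR3, so that the 9 windows formed 6 separate loci, and their regions are not independent. The order of the densities did not follow that of the TSS peaks in either direction. MUCL1, with the strongest TSS peak, had fewer regions per 100 kb than ANKRD30A, which had the weakest of the 8. AZGP1, next after MUCL1 by TSS peak, had 23.8, and SCGB2A2, with a weaker TSS peak, had 8.74.

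**Figure D3:**
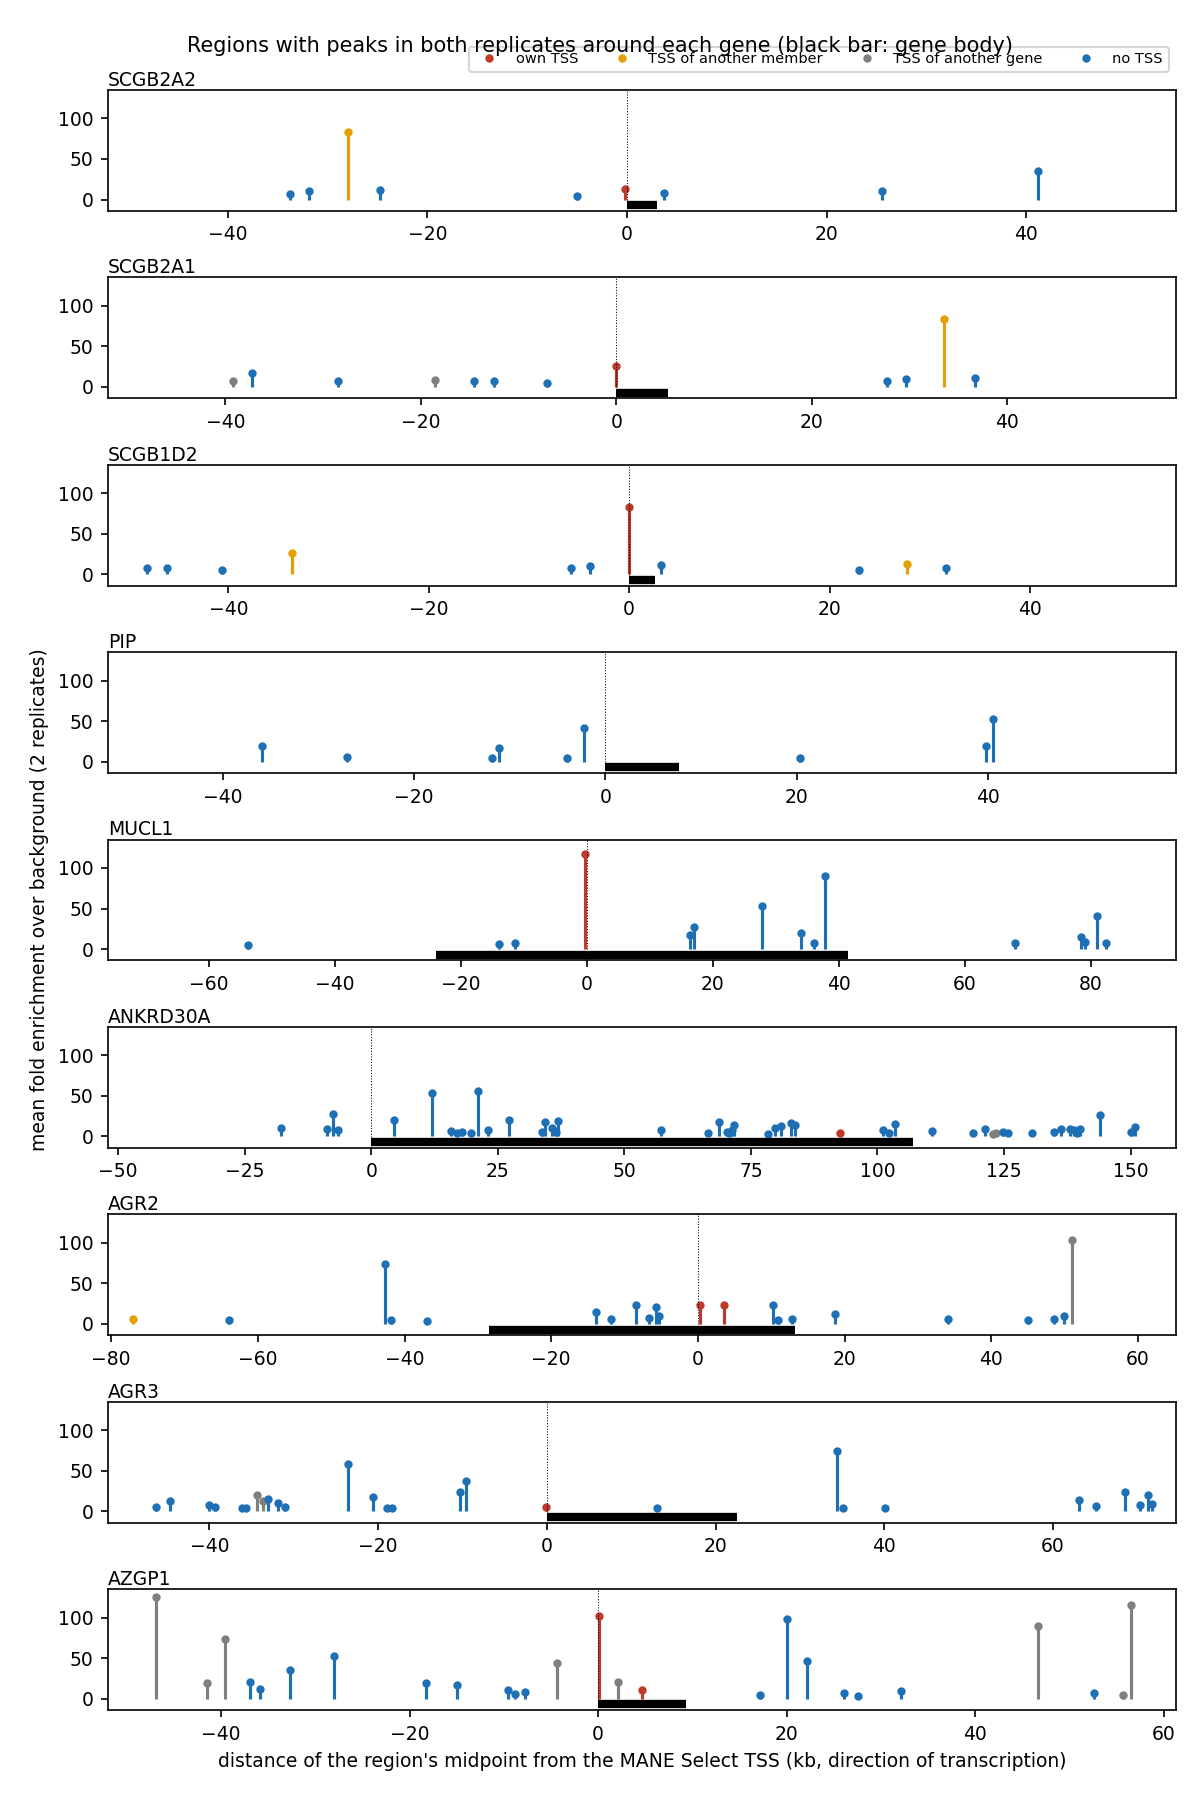
Regions with peaks in both replicates in the window of each gene, placed by the distance of their midpoint from the MANE Select TSS (kb, in the direction of transcription), with the mean fold enrichment over 2 replicates as the height of each stem. Colors mark regions at a TSS of the gene (red), of another of the 9 genes (orange), of another gene (grey) and at no TSS (blue), and the black bar is the gene body. At MUCL1, AZGP1, SCGB1D2 and SCGB2A1 the stem at the TSS is taller than every stem at no TSS. At AZGP1 the margin is narrow (101.5 against 98.2), and in replicate 1 alone the order was the reverse. PIP has no stem at 0 and none in its gene body, and the stems of ANKRD30A are spread over its introns.

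The strongest region at no TSS also placed the genes. Over the windows of all protein-coding genes its median fold enrichment was 47.5. AZGP1 (98.2, percentile 84.5), MUCL1 (90.2, percentile 81.2) and the shared region of AGR2 and AGR3 (73.9, percentile 71.8) lay above that median, ANKRD30A (56.6) and PIP (52.6) lay just above it, and SCGB2A2 (35.5), SCGB2A1 (17.3) and SCGB1D2 (11.4) lay below. SCGB1D2 was at percentile 5.72, so that its strong promoter peak had only weak regions at no TSS around it. The strongest such region of the secretoglobin locus was chr11:62311074-62311532, 41145 bp downstream of the TSS of SCGB2A2, with heights of 158 (134 to 185) and 155 (132 to 181). Around SCGB2A1 it was chr11:62171158-62171556, with 82 and 69, and around SCGB1D2 it was chr11:62245253-62245536, with 46 and 53.

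Regional signal was checked, since copy-number profiles were not analysed here. In the 5 Mb on either side of each locus, the median height of regions at no TSS lay between 33 and 42 in replicate 1 and between 39 and 44 in replicate 2, against 38 and 41 over the genome. The lowest values, 33 and 39, were around ANKRD30A and the highest, 42 and 44, around MUCL1. Within the loci the medians at no TSS were 71 and 75 for PIP, 55.5 and 48 for MUCL1, 46.5 and 52 for AZGP1, 35 and 35 for the secretoglobins, 34.5 and 39.5 for ANKRD30A, and 32 and 29 for AGR2 and AGR3. The height of the PIP locus rested on 9 regions.

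The replicates gave similar values in these windows. Of the 177 peaks of replicate 1, 163 (92.1%, Wilson 95% interval 87.2 to 95.2) were overlapped by a peak of replicate 2, against 90.2% of all peaks of replicate 1. In the other direction it was 163 of 183 (89.1%, 83.7 to 92.8), against 84.7% of all peaks of replicate 2. The peaks without a partner were low, between 13 and 31 reads in replicate 1 and between 14 and 33 in replicate 2. Of the 157 regions, 101 were higher in replicate 2, 50 in replicate 1 and 6 were equal, and the median ratio of heights was 1.07 both here and over all regions. The intervals of the replicates did not overlap in 2 of the 157 regions, against 1.39% of all regions. Both lay around AZGP1: chr7:99955165-99956884 described above, and chr7:100008434-100008965, which was higher in replicate 2 with 131 (110 to 155) and 184 (158 to 213). Across the 157 regions Spearman's rho of the heights was 0.952, against 0.9498 over all regions, a description over regions that share libraries.

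**Figure D4:**
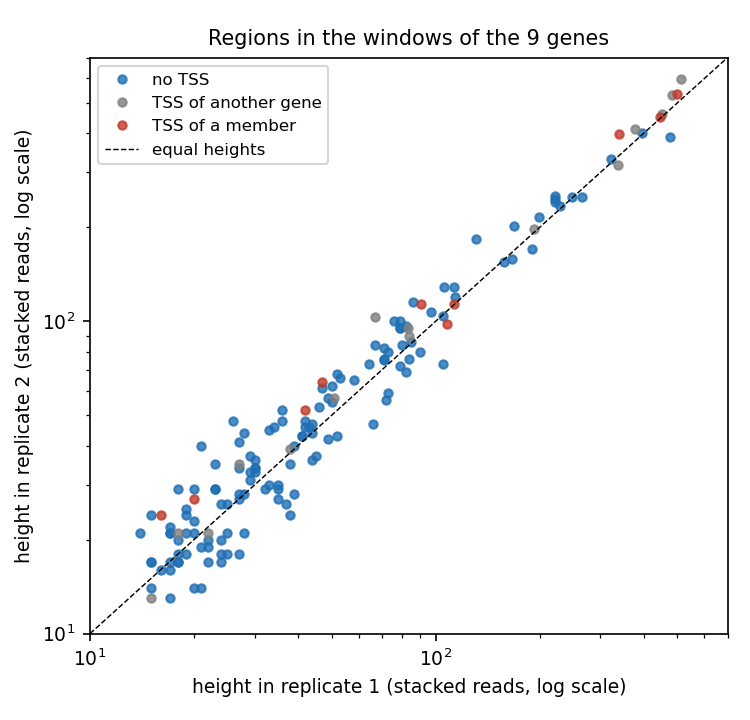
Height in replicate 1 against height in replicate 2 (stacked reads, both axes log) for the 157 regions in the windows of the 9 genes, with regions at a TSS of a member in red, at a TSS of another gene in grey and at no TSS in blue, and equal heights as the dashed line. The points follow the line over the whole range and spread more widely below about 50 reads, and 101 of 157 lie above it.

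Motif matches were counted in the promoters and regions as descriptions of sequence. The letters searched for ETS factors were CCGGAAG. For factors of the GATA family they were AGATAA, and for grainyhead AACCGGTT. The estrogen and androgen response elements were searched as well, all on both strands. The letters TATAAA were searched for on the strand of the gene, 20 to 40 bases before the start, as the TATA box. In the RefSeq promoters of 300 bases, FOX was found in 1 of 8 members (SCGB2A2) and in 7.17% of 35116 promoters, GATA in 1 (AGR2) and 10.3%, AP-1 in 2 (SCGB2A2 and PIP) and 7.71%, AP-2 in 2 (SCGB1D2 and MUCL1) and 23.2%, and the TATA box in 1 (AGR3) and 2.25%. ETS, found in 10.3% of all promoters, and the 3 remaining motifs were in none of the 8. No match in a member promoter shared a base with a match of another motif. AZGP1 and SCGB2A1, whose TSS peaks differed widely, held no match at all.

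In the central 300 bp of the 132 regions at no TSS, FOX was found in 24.2%, against 16.4% of the 172293 such regions of the genome. AP-1 was found in 18.9% against 14.6%, GATA in 15.2% against 15.7%, ETS in 0.758% against 1.33% and AP-2 in 6.82% against 13.6%. By locus, FOX was in 5 of 12 regions around the secretoglobins, 4 of 9 around PIP, 5 of 16 around AZGP1, 11 of 48 around ANKRD30A, 3 of 14 around MUCL1 and 4 of 33 around AGR2 and AGR3. Of the 10 strongest of the 132 regions 5 held it, among them those of MUCL1, ANKRD30A and PIP printed above. The strongest regions around AZGP1, around AGR2 and AGR3 and around the secretoglobins did not hold it. Base composition moved with these shares, since the median GC content was 43.3% in the 132 regions and 47.7% in all regions at no TSS, and its part in them was not tested.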

How the data were processed

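ATAC-seq libraries of 2 biological replicates of CAMA-1 were analysed. Per the labels, the authors used Trim Galore 0.6.5, Bowtie2 2.3.5.1 and MACS2 2.2.6 with hg38, calling peaks in each replicate. The settings of MACS2 and the treatment of duplicate reads are not given in the sources used here. Each deposited list held 4 values per peak: a display score, a fold enrichment (a ratio of the height to a background), and p-values and q-values, each as its −log10. In replicate 1 no deposited −log10 q was below 2.24, and in replicate 2 none was below 2.07, so weaker sites are not listed.

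The deposited fold enrichment was read as (height + 1) / (background + 1). The smallest step between its values gave the background and whole heights, with a deviation of at most 8.13e-05 of a step. The lists give no total of reads per library, so depth entered only through heights and their exact Poisson intervals. An overlap of 1 bp or more joined peaks, and TSSs and gene bodies were those of GENCODE release 44. Percentiles used the mean fold enrichment of both replicates. The replicates form 1 group, so values were described and not tested, and nothing was compared between conditions.

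All 9 members are named, with every region at their TSSs and the 3 strongest other regions of each window, as are genes with a TSS at a region of a window and, from each list, the 2 strongest genes and those without a TSS peak in both replicates. Genes used for a check of the label are named as well. The members and lists were chosen with earlier results of these data known. The functions were tested on simulated data. Python 3.11.15, pandas 2.3.3, scipy 1.17.1, pysam 0.24.0, biopython 1.88 and matplotlib 3.10.9 were used.

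The alternatives were other distances to the TSS, a single TSS per gene, only the 50000 strongest peaks per replicate, only peaks with −log10 q of 10 or more, windows with 10 kb and 100 kb on either side, stricter rules of overlap and the omission of each replicate. RNA-seq, copy-number and other data of the study were not analysed here.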

Additional observations from a re-analysis of the deposited data

How the results depend on the processing

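Of the 9 genes, 8 had a TSS peak in both replicates. With only the most 5′ TSS per gene the count was 5, without AGR2, ANKRD30A, MUCL1 and PIP, and with the 50000 strongest peaks of each replicate it was 5, without AGR3, ANKRD30A, PIP and SCGB2A2. It was 7 with a distance of 100 bp, 9 with 3 kb, 6 with a −log10 q of at least 10, and 8 without either replicate. It was 7 with the MANE Select TSS alone, an alternative chosen after seeing the data. The share of all protein-coding genes was 79.3% and became 73.2% at 100 bp, 85.0% at 3 kb, 71.7% with the most 5′ TSS, 76.9% with the −log10 q limit, 61.4% with the 50000 strongest peaks, 74.1% with the MANE Select TSS, and 80.1% to 80.6% with either replicate left out. Other secretoglobins with a TSS peak fell from 4 to 1 at 100 bp and to 0 with the 50000 strongest peaks. Secretory markers of other tissues rose from 8 to 13 at 3 kb and fell to 5 with the most 5′ TSS and to 2 with the 50000 strongest peaks. The windows held 80 regions with 10 kb on either side instead of 157. The share of peaks found in the other replicate was 81.9% and 79.2% with a reciprocal overlap of 50%, and 78.5% and 76.0% with midpoints within 100 bp. With the −log10 q limit, the density of regions per 100 kb was 15.9 for ANKRD30A, 13.9 for AGR3 and 5.57 for PIP, and with 10 kb on either side it was 17.7 for SCGB1D2 and 9.39 for AGR3. In all, 203 alternatives were computed over 43 results, of which 165 were labelled as kept and 38 as moved. Counts and densities were kept within a fixed ratio of the main value, so that 6 genes in place of 8 was kept. Shares were kept within the Wilson interval, and strengths and percentiles within the SD of the 2 replicates. By arithmetic, leaving out a replicate cannot move the strength of a TSS peak beyond that SD. The number kept is therefore no measure of robustness. The −log10 q of a peak was used as another measure of strength for percentiles only. Sites below the detection limit of the peak caller, such as the PIP promoter, cannot be told from closed ones at this depth. No paired analysis was possible because there is a single group.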

Other observations

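Regions at a TSS of a gene outside the list were found in the windows of AGR2, AGR3, AZGP1, SCGB2A1 and ANKRD30A, and in none of the windows of SCGB2A2, SCGB1D2, PIP and MUCL1. In the window of AGR2, the TSS of TSPAN13, a tetraspanin gene, had a region whose midpoint lay 51029 bp downstream of the MANE Select TSS of AGR2, with heights of 451 in replicate 1 and 463 in replicate 2, a fold enrichment of 103.3 ± 0.989 (SD, n = 2), where the AGR2 promoter had 108 and 98. Upstream of AGR3, the TSS regions of AHR, which encodes the aryl hydrocarbon receptor, were lower, with 84 and 90 in the stronger and 51 and 57 in the weaker.

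AZGP1 was surrounded by strong promoters. ZKSCAN1, a zinc finger gene, had TSS regions of 514 and 596, of 337 and 316, and of 67 and 103 reads. TRIM4 had 484 and 533, and a second region of 22 and 21. The region shared by GJC3, a connexin gene, and ENSG00000237640 had 377 and 414, and a further region at ENSG00000286921 had 83 and 95. The pseudogene AZGP1P1 had 193 and 198, less than the 445 and 453 of AZGP1. Around the secretoglobins and ANKRD30A the neighbors were weak, with 27 and 35 reads at the pseudogene EEF1DP8, 38 and 39 at SCGB1D1, and 18 and 21 in the stronger of the regions at the noncoding gene LINC00993.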
